A study of Mus musculus with 2 samples.

Results

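The proteasome subunit genes were taken as every gene of the matrix whose symbol begins with Psma, Psmb, Psmc, Psmd, Psme, Psmf or Psmg followed by a digit, which gave 50 of 27998 genes. They were grouped by role into 7 alpha and 7 constitutive beta subunits of the core, 3 immune subunits, 2 tissue-restricted core subunits, 6 ATPases and 11 other subunits of the cap, 5 activators, and 8 assembly chaperones and inhibitors. The last member, Psmc3ip, shares the name but encodes a partner of the ATPase Psmc3 that acts in homologous recombination and is no subunit. UMIs of 49 members were detected, and 48 members reached 5 UMIs per 1000000 (CPM) in at least 1 population.

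The data are a single-cell RNA library of mouse thymocytes in which 5 sorted populations, each labelled with its own hashtag antibody, were pooled. All cells came from the thymus of C57BL/6 mice of the genotype Bcl11byfp/yfp, in which both alleles of the commitment factor Bcl11b carry a fluorescent reporter, and all were Kit+ and negative for lineage markers and for the dead-cell dye 7AAD. Of the 4 gated sorts, which were also CD25- and Bcl11b-, the Flt3- Ly6d+ sort held 847 cells, the Flt3- Ly6d- HSA- sort 1205, the Flt3+ HSA+ sort 1182 and the Flt3+ Ly6d- HSA- sort 1412. The control had no further gate and held 3302 cells, so it can contain cells of each gated kind beside more advanced ones; the submitters call the gated sorts subsets of early T-cell progenitors (ETP) and the control ETP-DN2. HSA is the product of Cd24a, and the Ly6d+ sort was not gated on it. The sources used here name neither the number nor the age or sex of the mice. Each population was 1 sort, so no test between populations was possible: a difference below is one between these 5 sorts, and the 95% intervals cover counting error only.

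The proteasome degrades ubiquitin-tagged proteins in a barrel of stacked rings, in which the alpha subunits form the gate and the beta subunits hold the proteolytic sites. A cap with a ring of ATPases recognises, unfolds and feeds in the substrate. In blood cells, and in other cells under interferon, the catalytic beta subunits Psmb5, Psmb6 and Psmb7 are exchanged for Psmb8, Psmb9 and Psmb10, which changes the peptides offered to class I molecules, and a separate ring of Psme1 and Psme2 can dock in place of the cap.

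The RNA of Flt3, Ly6d and Bcl11b followed the gate labels, and that of Il2ra and Cd24a did so less cleanly. Flt3 was at 14.2 and 23.8 CPM in the Flt3- Ly6d+ and Flt3- Ly6d- HSA- sorts, against 64.1 and 87.7 CPM in the Flt3+ HSA+ and Flt3+ Ly6d- HSA- sorts. Ly6d was at 431 CPM in the Flt3- Ly6d+ sort and at 11.3 to 17.5 CPM in the other gated sorts, and Bcl11b stayed at or below 3.49 CPM in the gated sorts, against 193 CPM in the control. Il2ra, which encodes CD25, was at 30.0 CPM in the Flt3- Ly6d+ sort, although this sort was CD25-. It was at 0.569 to 9.20 CPM in the other gated sorts and 206 CPM in the control. Cd24a was at 96.2 and 80.4 CPM in the Flt3- Ly6d- HSA- and Flt3+ Ly6d- HSA- sorts, against 142 CPM in the Flt3+ HSA+ sort. In the Flt3- Ly6d+ sort it was at 203 CPM. Kit was at 64.9 to 112 CPM in the 5 populations. The 11 listed markers of early progenitors summed to 1542, 1523, 1305 and 1370 CPM in the Flt3- Ly6d+, Flt3- Ly6d- HSA-, Flt3+ HSA+ and Flt3+ Ly6d- HSA- sorts and 1129 CPM in the control, and the 7 of committed T cells to at most 35.9 CPM in the gated sorts and 651 CPM in the control. The 5 listed markers of mast cells and basophils summed to 227 and 329 CPM in the Flt3- Ly6d+ and Flt3- Ly6d- HSA- sorts, 48.2 and 33.2 CPM in the Flt3+ HSA+ and Flt3+ Ly6d- HSA- sorts and 374 CPM in the control, and their part in the differences between Flt3- and Flt3+ sorts was not tested. Median UMIs per cell differed between the populations, at 11404, 9860, 21151.5, 15477.5 and 16040 in the order Flt3- Ly6d+, Flt3- Ly6d- HSA-, Flt3+ HSA+, Flt3+ Ly6d- HSA- and control. Cells with UMIs of at least 7 of 14 granulocyte and monocyte markers made up 0%, 8.22%, 2.28%, 4.67% and 1.36% of these populations in the same order. These markers were counted at full depth, where a deeper cell reaches 7 more easily. Dividing cells, taken as those with 5 or more UMIs from a list of 21 genes of G2 and M phase after each cell was thinned to 3000 UMIs, made up 8.84%, 6.55%, 51.6%, 25.7% and 27.7%. Depth, granulocyte-marker cells and dividing cells thus moved with the populations, and results without such cells are given below for several comparisons.

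Proteasome transcripts were abundant and nearly even across the 5 populations. Summed over the 49 genes without Psmc3ip they came to 8274 CPM in the Flt3- Ly6d+ sort, 8428 in the Flt3- Ly6d- HSA- sort, 9032 in the Flt3+ HSA+ sort, 9120 in the Flt3+ Ly6d- HSA- sort and 9445 in the control, or 0.827% to 0.944% of all UMIs. For 46 members with a mean of at least 20 CPM, the highest population over the lowest had a median ratio of 1.20, with 44 of 46 (95.7%) under 1.5-fold. Over all 5508 genes with a mean of at least 20 CPM the median was 1.24, and 82.2% were under 1.5-fold. Only this minimum was shared, and the levels above it were not matched to those of the members. The smallest spread was that of the alpha subunit Psma1, at 1.05-fold, and the largest that of Psmc3ip, at 1.95-fold. A UMI marks the 3' end of a transcript and is not scaled by length, so levels of different genes are compared here as transcripts counted.

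**Figure D1:**
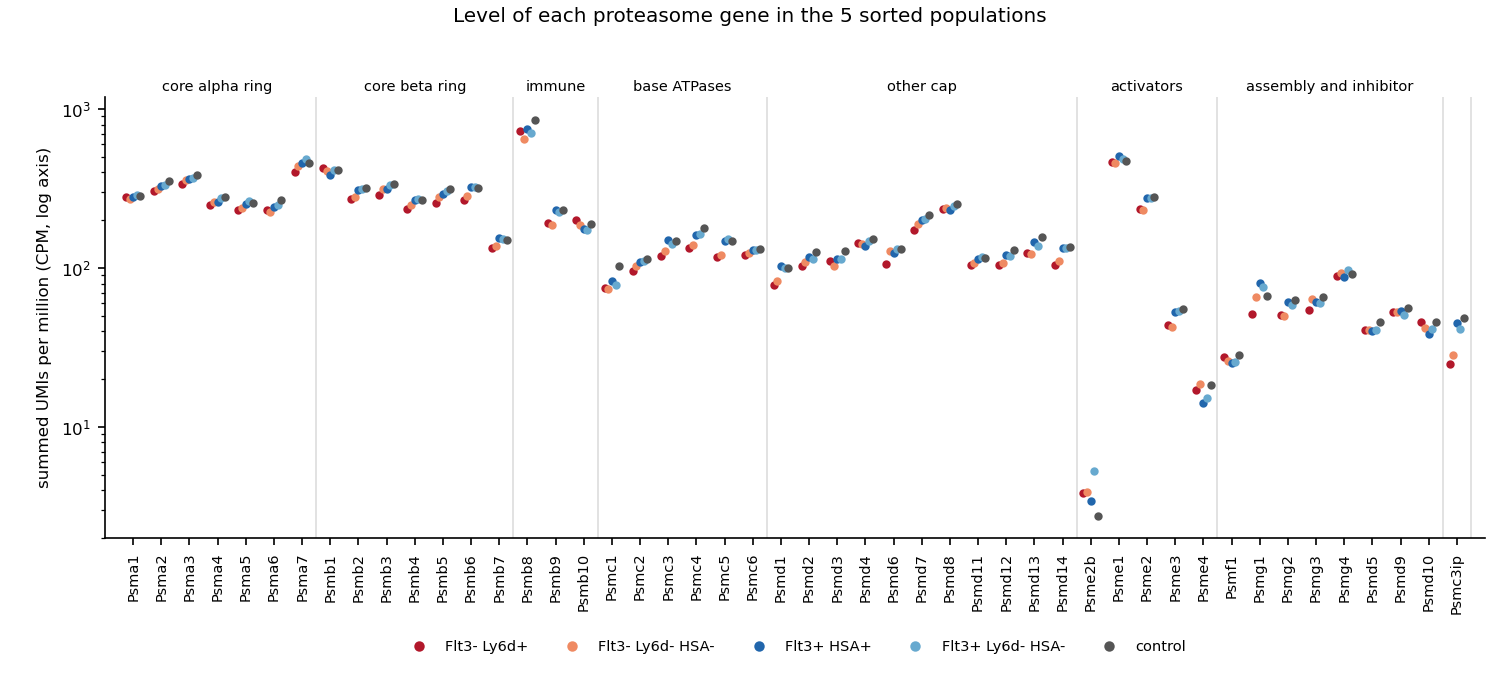
Level of 48 proteasome genes in each of the 5 populations, in CPM on a log axis, grouped by role; each dot is 1 population, and Psma8 and Psmb11 are not plotted. The dots of a gene lie close together compared with the distance between genes, and the lowest gene plotted is Psme2b at 2.74 to 5.32 CPM.

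The 7 alpha subunits, which form the outer rings and gate of the core, lay within a narrow band. In the Flt3- Ly6d+ sort they ran from Psma6 at 231 CPM to Psma7 at 401 CPM, and in the control from Psma5 at 255 CPM to Psma7 at 459 CPM. Psma7 was the highest of the 7 in all 5 populations. Among the 7 constitutive beta subunits Psmb1, a structural subunit without a proteolytic site, was the highest, at 424, 410.5, 387, 416 and 417 CPM in the Flt3- Ly6d+, Flt3- Ly6d- HSA-, Flt3+ HSA+, Flt3+ Ly6d- HSA- and control cells. The catalytic Psmb7 was the lowest, at 134 to 155 CPM.

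The catalytic sites showed the clearest differences in level between paired genes. Psmb8, the immune counterpart of the chymotrypsin-like subunit Psmb5, was the most abundant member in every population. It was counted at 731 CPM in the Flt3- Ly6d+ sort, 653 in the Flt3- Ly6d- HSA- sort, 752 in the Flt3+ HSA+ sort, 709 in the Flt3+ Ly6d- HSA- sort and 856 in the control. Psmb5 was at 257, 280.3, 293, 304 and 317 CPM in the same order, so Psmb8 stood above it in all 5. Psmb9, the counterpart of the caspase-like Psmb6, was at 191, 185, 231, 224 and 231 CPM. Psmb6 was at 269, 285, 323, 322 and 322 CPM, so here the constitutive gene stood above its immune counterpart in all 5. Psmb10, which replaces the trypsin-like Psmb7, was at 200.2, 188, 177, 174 and 189 CPM, against 134, 138, 155, 152 and 150 CPM for Psmb7, and it was the only immune subunit that was higher in both Flt3- sorts than in both Flt3+ sorts. Psmb8 and Psmb9 lie beside each other on chromosome 17 (mm10, GENCODE M21; Psmb8 at 34197721 to 34201454 and Psmb9 at 34181987 to 34187764). Psmb10 lies on chromosome 8, at 105935735 to 105938444. Psmb9 overlaps Tap1, a peptide transporter gene, on the opposite strand, Psmb8 overlaps Gm20496 and Psmb10 overlaps Gm16156. The sources used here do not say whether the authors counted by strand, so reads of these pairs may not have been told apart.

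The sequences just upstream of the immune Psmb10 and the constitutive Psmb5 and Psmb6 are shown because they differ in the motif named next. They were picked for that difference and hold no pair of counterparts. Psmb10 replaces Psmb7, which had no RefSeq promoter, and the windows of Psmb8 and Psmb9 are not shown. The core of the antioxidant response element, TGACNNNGC, through which Nfe2l1 drives proteasome genes in mammals, is in capitals. Each line is a RefSeq promoter stretch of 120 bases (GRCm38.p6, strand of the gene, 5′ to 3′) that is free of annotated exons.
Psmb10, chr8:105938445-105938564, minus strand: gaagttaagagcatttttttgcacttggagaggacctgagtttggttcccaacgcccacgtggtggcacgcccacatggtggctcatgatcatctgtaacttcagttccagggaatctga
Psmb5, chr14:54618023-54618142, minus strand: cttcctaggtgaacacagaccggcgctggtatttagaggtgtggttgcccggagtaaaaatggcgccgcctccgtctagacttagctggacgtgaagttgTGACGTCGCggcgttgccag
Psmb6, chr11:70525237-70525356, plus strand: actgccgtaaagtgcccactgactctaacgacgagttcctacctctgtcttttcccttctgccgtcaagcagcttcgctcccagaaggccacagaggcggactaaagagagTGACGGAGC
In the full window of 300 bases (250 before to 50 after the start, both strands), this motif was found in 6 of the 42 members with a RefSeq promoter (14.3%), namely Psmb5, Psmb6, Psmc6, Psmd9, Psmd12 and Psme4. It was found in 17.9% of the 4299 genes with a mean of at least 20 CPM and in 13.99% of all 27025 promoters. The share among the members thus lay between these. Of the motifs linked to interferon in mammals, GAAA, any 2 bases and GAAA again was in 11.9% of members (Psmb3, Psmd4, Psmd9, Psme1 and Psmg4) against 3.86% of the 4299 genes, and TTCNNNGAA was in 7.14% (Psmb8, Psmd2 and Psmg1) against 7.84%. CCAAT was in 35.7% of members and 42.7% of the 4299 genes. A motif match is a description of the letters only. Psmb1, Psmb2, Psmb7, Psmc3, Psmd3, Psmd7, Psma8 and Psmg2 had no entry.

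The balance of immune and constitutive sites was expressed as the immune subunits' share of the UMIs of all 6 catalytic subunits. It was 63.0% (exact Clopper-Pearson 95% interval 62.3% to 63.6%) in the Flt3- Ly6d+ sort and 59.3% (58.7% to 59.9%) in the Flt3- Ly6d- HSA- sort. In the Flt3+ HSA+ sort it was 60.1% (59.6% to 60.5%), in the Flt3+ Ly6d- HSA- sort 58.7% (58.3% to 59.2%) and in the control 61.8% (61.6% to 62.1%). Immune subunits thus made up most catalytic transcripts in every population, and their share was highest in the Flt3- Ly6d+ sort and the control. The neighbours Flt3- Ly6d- HSA- and Flt3+ Ly6d- HSA-, and Flt3- Ly6d- HSA- and Flt3+ HSA+, overlapped in their counting intervals.

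The 3 pairs did not move alike. For Psmb10 of Psmb10 and Psmb7 the share was 59.9% (58.2% to 61.5%) in the Flt3- Ly6d+ sort and 57.6% (56.1% to 59.0%) in the Flt3- Ly6d- HSA- sort. It was 53.3% (52.3% to 54.4%) in the Flt3+ HSA+ sort, 53.3% (52.2% to 54.4%) in the Flt3+ Ly6d- HSA- sort and 55.8% (55.1% to 56.5%) in the control, so the intervals of both Flt3- sorts lay above those of both Flt3+ sorts. That separation was lost among cells with under 5 G2 and M phase UMIs, where the Flt3- Ly6d- HSA- sort was at 58.1% (56.6% to 59.7%) and the Flt3+ HSA+ sort at 58.03% (56.3% to 59.7%). Psmb8 of Psmb8 and Psmb5 made up 74.0%, 69.95%, 71.9%, 70.002% and 73.0% in the Flt3- Ly6d+, Flt3- Ly6d- HSA-, Flt3+ HSA+, Flt3+ Ly6d- HSA- and control cells, with the Flt3- Ly6d- HSA- and Flt3+ Ly6d- HSA- sorts lowest. Psmb9 of Psmb9 and Psmb6 varied least, between 39.4% in the Flt3- Ly6d- HSA- sort and 41.8% in the control. The order of the summed share was not stable to cell depth. Among cells of 10000 to 15000 UMIs, a range chosen after seeing the data, it was 62.2%, 61.0%, 63.3%, 61.8% and 63.7% in the same order.

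**Figure D2:**
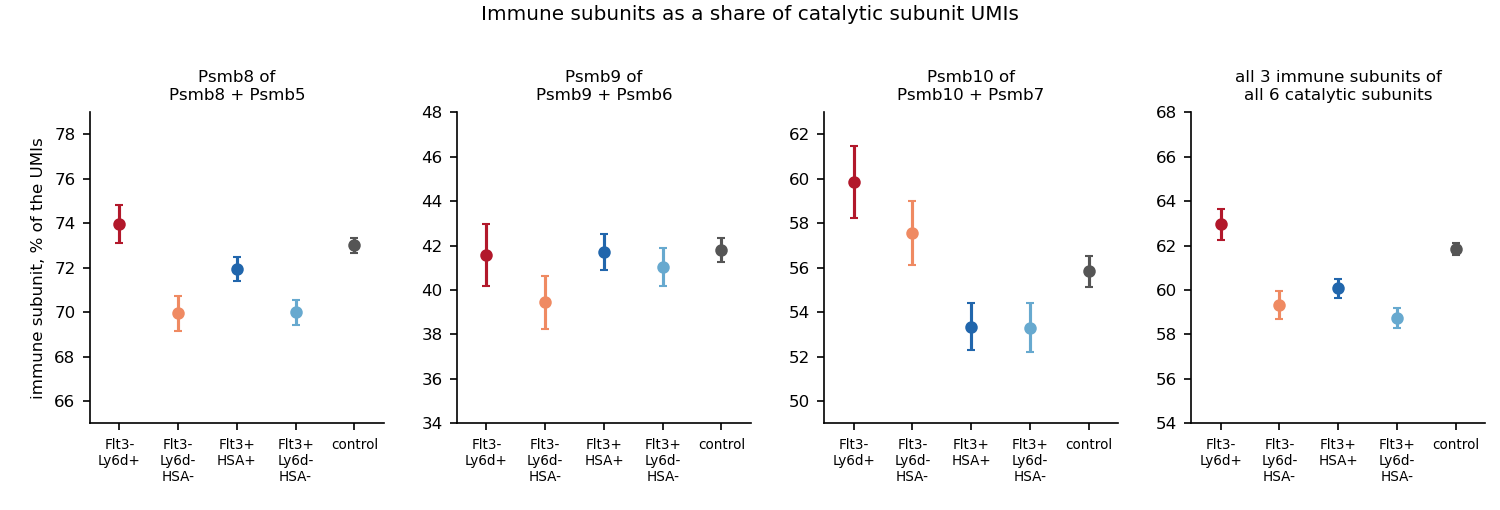
Share of UMIs that came from the immune subunit, in percent, for each of the 3 catalytic pairs and for their sum, in the 5 populations; bars are 95% Clopper-Pearson intervals and the axes, which do not start at 0, each span 14 points. Psmb10 separates both Flt3- sorts (59.9% and 57.6%) from both Flt3+ sorts (53.3% each) when all cells are counted, while Psmb8 does not.

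Of the activators, the interferon-inducible pair Psme1 and Psme2 was by far the most abundant. Psme1 was at 465, 462, 504, 487 and 469 CPM in the Flt3- Ly6d+, Flt3- Ly6d- HSA-, Flt3+ HSA+, Flt3+ Ly6d- HSA- and control cells, and Psme2 at 236, 231, 277, 275 and 278 CPM. The nuclear activator Psme3 was at 44.0, 42.4, 53.0, 53.7 and 55.2 CPM. Psme2 and Psme3 were thus lower in both Flt3- sorts than in the other 3 populations, without overlap of the counting intervals. Among cells of 10000 to 15000 UMIs, Psme3 turned to a ratio of 1.08 (0.874 to 1.33) in the Flt3- Ly6d- HSA- sort over the Flt3+ Ly6d- HSA- sort. Psme4, a large single-chain activator, ran between 14.2 CPM in the Flt3+ HSA+ sort and 18.8 CPM in the Flt3- Ly6d- HSA- sort. Psme2b, a near copy of Psme2 on chromosome 11 whose reads may be shared with it, was at 3.86, 3.92, 3.43, 5.32 and 2.74 CPM, and its values are uncertain for that reason. It also overlaps other genes on its own strand.

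In the cap, the 6 ATPases that unfold the substrate ran from Psmc1 (74.98 CPM in the Flt3- Ly6d+ sort, 102 CPM in the control) to Psmc4 (134 CPM in the Flt3- Ly6d+ sort, 179 CPM in the control). The other 11 cap subunits ran from the scaffold Psmd1 (77.8 CPM in the Flt3- Ly6d+ sort, 101 CPM in the control) to Psmd8 (235 and 254 CPM). Most cap genes were counted at lower levels than most core genes, but the ranges overlapped: Psmb7, at 134 to 155 CPM, was below Psmd8 in every population. The 17 cap genes summed to 2051, 2136, 2327, 2345 and 2471 CPM in the 5 populations. The sum of the 14 constitutive core genes was 3920, 4072, 4244, 4381 and 4408 CPM, in the order Flt3- Ly6d+, Flt3- Ly6d- HSA-, Flt3+ HSA+, Flt3+ Ly6d- HSA- and control. Both sums kept this same order of populations, with the Flt3- Ly6d+ sort lowest and the control highest.

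Assembly factors summed to the lowest level of the roles apart from the tissue-restricted genes, at 414 to 464 CPM. They ran from the inhibitor Psmf1, at 25.4 to 28.6 CPM, to the core chaperone Psmg4, at 87.9 to 96.7 CPM. The base chaperones Psmd5 and Psmd9 stayed at 40.5 to 45.8 CPM and 50.6 to 55.9 CPM. Psmg1, which with Psmg2 guides the alpha ring together, varied most among them. It was at 51.6 CPM in the Flt3- Ly6d+ sort (95% interval 47.4 to 56.1), 65.6 in the Flt3- Ly6d- HSA- sort (61.4 to 69.9), 80.2 in the Flt3+ HSA+ sort (76.7 to 83.7), 76.6 in the Flt3+ Ly6d- HSA- sort (73.2 to 80.1) and 66.6 in the control (64.5 to 68.8). The Flt3- Ly6d+ interval lay below all others. Its upstream stretch is shown for that reason, with the ETS motif CCGGAAG in capitals (RefSeq, GRCm38.p6, strand of the gene, 5′ to 3′).
Psmg1, chr16:95990961-95991080, minus strand: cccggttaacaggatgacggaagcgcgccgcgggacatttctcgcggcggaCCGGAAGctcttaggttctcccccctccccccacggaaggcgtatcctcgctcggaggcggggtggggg
This motif, on either strand, was in the promoters of 15 of 42 members (35.7%), against 25.3% of the 4299 genes with a mean of at least 20 CPM and 9.93% of all promoters.

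The tissue-restricted core genes were at or near 0. No UMI of Psmb11, the catalytic subunit of cortical thymic epithelium, was counted in any population, which, at an upper limit of 3 UMIs for a count of 0, allows up to 0.283, 0.214, 0.117, 0.122 and 0.0524 CPM in the Flt3- Ly6d+, Flt3- Ly6d- HSA-, Flt3+ HSA+, Flt3+ Ly6d- HSA- and control cells. Of 7 listed genes of thymic epithelium, Foxn1 and Krt5 also had no UMI, but the others did. Epcam was at 1.17 to 2.26 CPM in the gated sorts and 10.2 CPM in the control. Prss16 was at 2.54 to 4.71 CPM in the 5 populations. The list summed to 9.26 to 12.6 CPM in the gated sorts and 19.4 CPM in the control. Psma8, an alpha subunit of male germ cells, was at 1.13, 0.713, 1.249, 1.22 and 1.47 CPM in the same order. Psmc3ip was at 24.9 and 28.5 CPM in the Flt3- Ly6d+ and Flt3- Ly6d- HSA- sorts, against 45.1, 41.4 and 48.4 CPM in the Flt3+ HSA+, Flt3+ Ly6d- HSA- and control cells.

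In the Flt3- Ly6d- HSA- sort, compared with the Flt3+ Ly6d- HSA- sort, most proteasome genes were slightly lower. No measured member of 48 was 1.5-fold apart, where 9.15% of all 9210 measured genes were, and 42 of 48 had a ratio under 1, where 44.8% of all genes did. The intervals of 32 lay wholly under 1 and those of 2 wholly over it. The median log2 ratio of the members was −0.12, against 0.03 for all genes. All 14 constitutive core genes and all 17 cap genes were under 1, with summed ratios of 0.930 (0.920 to 0.939) and 0.911 (0.898 to 0.924). Of the immune subunits Psmb8 (ratio 0.921, 0.898 to 0.944) and Psmb9 (0.828, 0.790 to 0.867) were lower and Psmb10 (1.08, 1.03 to 1.13) was higher. The lowest ratios were those of Psmc3ip (0.690, 0.613 to 0.775), Psme2b (0.738, 0.528 to 1.02) and Psme3 (0.790, 0.716 to 0.871), and the highest those of Psme4 (1.23, 1.04 to 1.44), Psmb10 and the core chaperone Psmg3 (1.07, 0.986 to 1.17). The 21 G2 and M phase genes summed to 573 CPM in the Flt3- Ly6d- HSA- sort and 2016 CPM in the Flt3+ Ly6d- HSA- sort. Among cells with under 5 G2 and M phase UMIs the same 42 of 48 count under 1 was found. Without granulocyte-marker cells 42 of 48 were under 1 too, but the median log2 ratio was further from 0, at −0.196. The median of all genes was then 0.044. In that setting Psmc3ip was 1.5-fold apart, 1 of 48 members where 13.1% of all genes were. Among cells of 10000 to 15000 UMIs the median log2 ratio was −0.01, with 29 of 48 under 1, and Psme3 turned to 1.08 (0.874 to 1.33).

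Proteasome genes were nearly level between the Flt3+ HSA+ sort and the Flt3+ Ly6d- HSA- sort. Psme2b, lower at a ratio of 0.646 (0.487 to 0.852), was the only member of 48 that was 1.5-fold apart, where 2.8% of all genes were. A ratio under 1 was found for 28 of 48, close to the 51.6% of all genes, and the median log2 ratio was −0.02. All 3 immune subunits were over 1, with a summed ratio of 1.05 (1.03 to 1.07), Psmb8 at 1.06 (1.04 to 1.08) among them, while 12 of 14 constitutive core genes were under 1 (summed ratio 0.969, 0.961 to 0.977). The direction of these small differences turned with the setting: after thinning to 3000 UMIs per cell 17 of 48 members were under 1, the constitutive core was at 1.001 (0.979 to 1.02) and the 49 genes were at 1.02 (1.004 to 1.03). Besides Psme2b the lowest ratios were those of Psmg4 (0.909, 0.857 to 0.963) and Psme4 (0.925, 0.799 to 1.07), and the highest, beside Psmb8, those of Psmc3ip (1.09, 1.001 to 1.19) and the ATPase Psmc1 (1.06, 0.998 to 1.13). The G2 and M phase genes summed to 3680 CPM in the Flt3+ HSA+ sort and 2016 CPM in the Flt3+ Ly6d- HSA- sort. The part of dividing cells in these ratios was not tested.

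The Flt3- Ly6d+ sort was compared with the Flt3- Ly6d- HSA- sort, which lacks Ly6d. No member of 47 was 1.5-fold apart, against 4.23% of all genes, and 29 of 47 had a ratio under 1, against 45.9%. The 3 immune subunits were all over 1 (summed ratio 1.09, 1.07 to 1.12), led by Psmb8 at 1.12 (1.09 to 1.15), while 11 of 14 constitutive core genes were under 1 (0.963, 0.9504 to 0.975). The lowest ratios were those of Psmg1 (0.787, 0.707 to 0.876), the lid subunit Psmd6 (0.831, 0.771 to 0.896) and Psmg3 (0.844, 0.759 to 0.938). The highest, beside Psmb8, were those of the base chaperone Psmd10 (1.08, 0.959 to 1.22) and the lid subunit Psmd3 (1.07, 0.992 to 1.159). Granulocyte-marker cells were 0% of the Flt3- Ly6d+ sort and 8.22% of the Flt3- Ly6d- HSA- sort. Once such cells were left out the direction of the constitutive genes turned: 41 of 47 members were over 1, the constitutive core came to 1.06 (1.04 to 1.07) and the cap to 1.06 (1.04 to 1.08). The immune subunits were at 1.10 (1.08 to 1.13) without these cells, and the part of such cells in these ratios was not tested further.

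The lowest median ratio was that between the Flt3- Ly6d+ sort and the Flt3+ HSA+ sort. Psmc3ip (ratio 0.551, 0.480 to 0.630, or 1.81-fold lower) and Psmg1 (0.644, 0.585 to 0.708, or 1.55-fold lower) were 1.5-fold apart, 2 of 47 members where 15.6% of all genes were. A ratio under 1 was found for 37 of 47, against 44.7% of all genes, and the median log2 ratio was −0.17, against 0.04. All 6 ATPases were under 1 (summed ratio 0.849, 0.826 to 0.873), as were 12 of 14 constitutive core genes (0.924, 0.913 to 0.934). The third lowest ratio was that of Psmd1 (0.754, 0.697 to 0.816). Psme4 (1.20, 1.001 to 1.44), Psmd10 (1.18, 1.06 to 1.32) and Psmb10 (1.13, 1.07 to 1.19) were the highest, and Psmb9 (0.828, 0.787 to 0.871) and Psmb8 (0.971, 0.946 to 0.997) were lower. The G2 and M phase genes summed to 895 CPM in the Flt3- Ly6d+ sort and 3680 CPM in the Flt3+ HSA+ sort. With dividing cells left out, 36 of 47 members were under 1 and Psmc3ip was at 0.506 (0.427 to 0.597), while Psmg1 was at 0.703 (0.623 to 0.791). Among cells of 10000 to 15000 UMIs the members' median log2 ratio turned to 0.02, with 21 of 47 under 1. There Psmg1 was at 0.733 (0.592 to 0.907), no longer 1.5-fold apart. The 2 members apart were Psmc3ip and Psmd10, where 13.5% of all genes were apart.

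**Figure D3:**
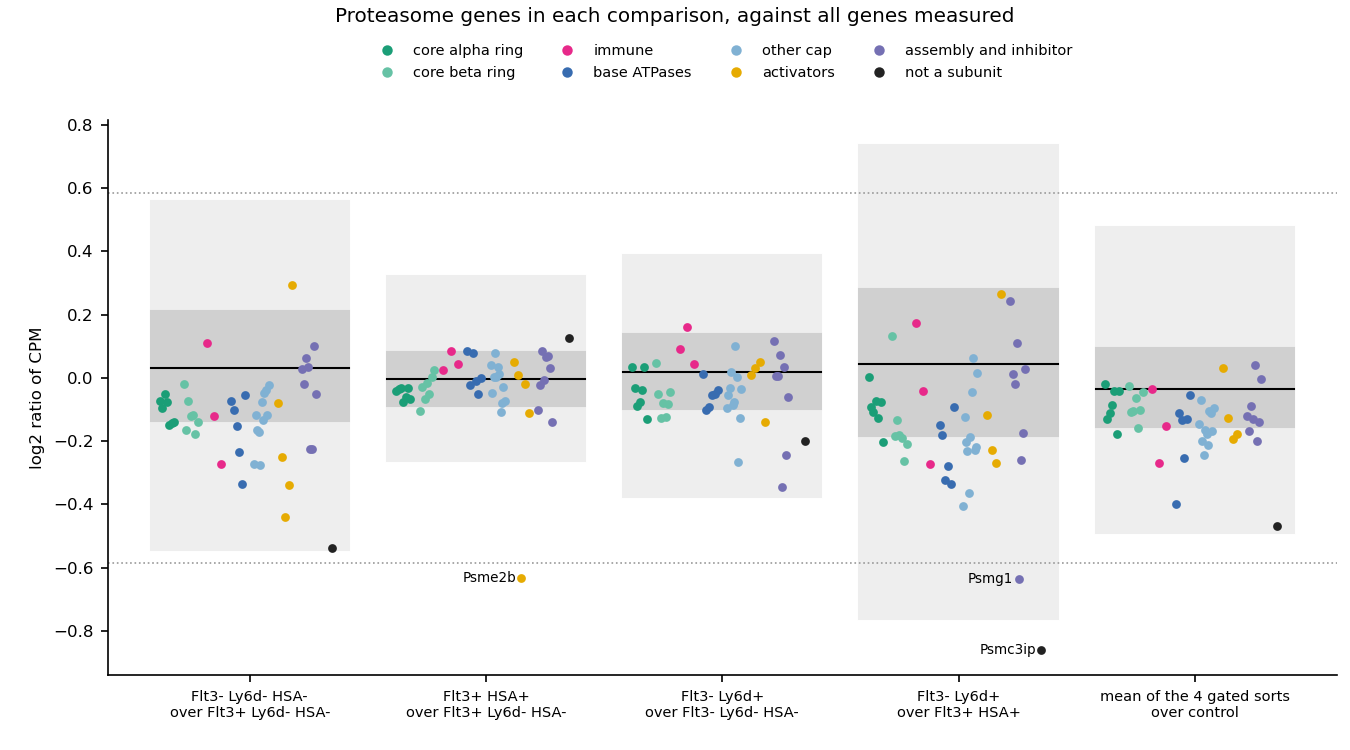
Log2 ratio of each measured proteasome gene in the 5 comparisons, coloured by role; the light grey box spans the 5th to 95th percentile of all measured genes, the dark grey box the quartiles and the black line the median, and dotted lines mark 1.5-fold. Most members lie inside the light box, and their medians, from −0.17 to −0.02, lie below the all-gene medians.

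Against the control, the mean of the 4 gated sorts was lower for 45 of 47 members, where 58.1% of all genes were. No member was 1.5-fold apart, against 7.06% of all genes. Among the core, cap, activator and assembly roles and the immune subunits, the immune subunits had the lowest summed ratio, at 0.865 (0.856 to 0.874), with Psmb8 at 0.830 (0.820 to 0.841), Psmb9 at 0.9003 (0.879 to 0.922) and Psmb10 at 0.977 (0.952 to 1.003). All 17 cap genes (0.896, 0.890 to 0.903) and all 14 constitutive core genes (0.942, 0.937 to 0.947) were under 1 too. The lowest members were Psmc3ip (0.723, 0.685 to 0.763), Psmc1 (0.758, 0.730 to 0.787) and Psmb8, and the highest Psmg1 (1.03, 0.985 to 1.07), Psme1 (1.02, 1.01 to 1.04) and Psmg4 (0.998, 0.961 to 1.04). Ribosomal protein genes took 32.2% to 33.5% of UMIs in the gated sorts and 30.8% in the control. With totals taken without ribosomal protein and mitochondrial genes the ratios were 0.894 (0.885 to 0.903) for the immune subunits and 0.974 (0.969 to 0.979) for the constitutive core. At a threshold of 25% in place of 1.5-fold, members apart numbered 4, 1, 1, 6 and 2 in the 5 comparisons in the order given, against 25.9%, 8.1%, 14.2%, 37.4% and 18.1% of all genes. The 5 comparisons share populations, so a sort that stood apart would enter several of them.

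Most genes around the proteasome also stayed within 1.5-fold, as did most of all genes. Of 21 listed genes for ubiquitin, shuttling, assembly and transcriptional control of the proteasome, 15, 9, 12, 15 and 16 had a ratio under 1 in the comparisons in the order given above, where 44.8%, 51.6%, 45.9%, 44.7% and 58.1% of all genes did. The 1 that was 1.5-fold apart was Nfe2l2, the regulator of the antioxidant response, at 55.3 CPM in the Flt3- Ly6d+ sort and 36.6 CPM in the Flt3+ HSA+ sort (ratio 1.51, 1.36 to 1.68). Between these sorts 15.6% of all genes were 1.5-fold apart. Pomp, the chaperone that completes the core and was counted among these 21, was at 352, 363, 410.4, 430.3 and 389.6 CPM in the Flt3- Ly6d+, Flt3- Ly6d- HSA-, Flt3+ HSA+, Flt3+ Ly6d- HSA- and control cells. Of 12 measured genes of class I antigen presentation the 1 that was 1.5-fold apart was Calr, a chaperone of the endoplasmic reticulum, at 435 CPM in the Flt3- Ly6d+ sort and 889 CPM in the Flt3- Ly6d- HSA- sort (ratio 0.489, 0.473 to 0.506). Between those sorts 4.23% of all genes were 1.5-fold apart. B2m, the invariant chain of class I, was at 1203 and 1113 CPM in the Flt3- Ly6d+ and Flt3- Ly6d- HSA- sorts, against 955 and 991 CPM in the Flt3+ HSA+ and Flt3+ Ly6d- HSA- sorts. B2m, named after its values were seen, was thus higher in both Flt3- sorts than in both Flt3+ sorts. So were H2-D1, Irf1 and Tapbp of the same list, while Canx, Erap1 and Tap1 were lower in both Flt3- sorts. The list as a whole was mixed. In the Flt3- Ly6d- HSA- sort over the Flt3+ Ly6d- HSA- sort 6 of the 12 were under 1. In the Flt3- Ly6d+ sort over the Flt3+ HSA+ sort 5 of 12 were. The transporter gene Tap1 was at 85.2 and 77.8 CPM in the Flt3- Ly6d+ and Flt3- Ly6d- HSA- sorts, against 89.8 and 90.3 CPM in the Flt3+ HSA+ and Flt3+ Ly6d- HSA- sorts.

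Within a population, the granulocyte-marker cells carried more proteasome transcripts and a lower share of immune subunits than the other cells. In the Flt3- Ly6d- HSA- sort the 49 genes summed to 10823 CPM in the 99 such cells and 7827 CPM in the other 1106, and the immune share was 52.1% (50.8% to 53.4%) in the 99 cells and 61.6% (60.9% to 62.3%) in the others. There, 19 of 47 members were 1.5-fold higher and none was 1.5-fold lower, although 50.3% of all 9381 genes were 1.5-fold apart. The other populations with such cells had fewer: 2 of 47 members were higher and 1 lower in the Flt3+ HSA+ sort (47.6% of all genes apart), 6 of 48 higher and 1 lower in the Flt3+ Ly6d- HSA- sort (42.2%), and 4 of 47 higher and none lower in the control (41.6%). Psma7 was at 720 CPM in the 99 cells and 368 CPM in the others (ratio 1.955, 1.85 to 2.06), and Psmb5 at 442 and 239.8 CPM (1.84, 1.72 to 1.97). Psmb8 was at 664 CPM in the 99 cells and 649.9 CPM in the others (1.02, 0.970 to 1.07), so it did not share in the higher level of the constitutive genes. In the Flt3+ HSA+, Flt3+ Ly6d- HSA- and control populations the granulocyte-marker cells had immune shares of 45.6%, 50.4% and 50.6%, against 60.8%, 59.7% and 62.2% in the other cells. Psmb8 itself was lower in them there, at ratios of 0.634 (0.585 to 0.685), 0.832 (0.789 to 0.878) and 0.775 (0.731 to 0.821). These cells also had more UMIs, with a median of 29408 against 9474 in the other cells of the Flt3- Ly6d- HSA- sort. Their choice by markers at full depth favours deeper cells, and the part of depth in the difference was not tested.

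Dividing cells had more proteasome transcripts in every population, most so in the Flt3- Ly6d- HSA- sort. There 7 of 47 members were 1.5-fold higher and none was 1.5-fold lower, where 30.3% of all genes were 1.5-fold apart. In the Flt3- Ly6d+ sort 2 of 47 were higher and none lower (22.5% of all genes apart). No member was 1.5-fold apart in the Flt3+ HSA+, Flt3+ Ly6d- HSA- and control populations (9.96%, 12.1% and 11.7%). The 49 genes summed to 9033, 10072, 9183, 9640 and 9877 CPM in cells with at least 5 G2 and M phase UMIs, against 8176, 8235, 8787, 8832 and 9160 CPM in the other cells of the Flt3- Ly6d+, Flt3- Ly6d- HSA-, Flt3+ HSA+, Flt3+ Ly6d- HSA- and control populations. The immune subunits did not move alike here, and their pattern differed between populations. In the control, Psmb9 was at 265 CPM in dividing cells and 207 CPM in the others (ratio 1.28, 1.24 to 1.32), Psmb8 at 859 and 855 CPM (1.004, 0.986 to 1.02) and Psmb10 at 169 and 204 CPM (0.830, 0.798 to 0.863). In both Flt3+ sorts Psmb9 was higher in dividing cells and Psmb8 and Psmb10 were lower, at Psmb8 ratios of 0.937 (0.910 to 0.964) in the Flt3+ HSA+ sort and 0.943 (0.914 to 0.973) in the Flt3+ Ly6d- HSA- sort. In the Flt3- Ly6d+ sort Psmb8 (1.07, 1.004 to 1.14) and Psmb9 (1.27, 1.12 to 1.43) were higher and the interval of Psmb10 held 1. In the Flt3- Ly6d- HSA- sort the intervals of all 3 held 1. The share of Psmb10 in its pair was 51.9%, 54.2%, 50.5%, 48.8% and 51.0% in dividing cells, against 61.2%, 58.1%, 58.0%, 55.9% and 59.1% in the others, lower in the dividing cells of all 5 populations. With dividing cells left out, the interval of the Flt3- Ly6d- HSA- sort (56.6% to 59.7%) held the value of the Flt3+ HSA+ sort, so Psmb10 no longer separated both Flt3- sorts from both Flt3+ sorts.

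Depth went with these values too. In cells above their population's median UMI count the 49 genes summed to 8792, 9063, 9396, 9611 and 9929 CPM, against 7279, 7016, 8329, 8088 and 8301 CPM in the shallower cells. The immune share was lower in the deeper cells of all 5 populations, at 62.8%, 58.0%, 58.3%, 57.4% and 61.1%, against 63.4%, 62.8%, 63.7%, 62.0% and 63.9%. In 4 of the 5 populations Psmc3ip had the highest ratio of deeper to shallower cells among the measured members. It was at 37.1 CPM in the deeper and 9.43 CPM in the shallower cells of the Flt3- Ly6d- HSA- sort (ratio 3.94, 2.85 to 5.58) and at 58.6 and 24.2 CPM in those of the control (2.43, 2.18 to 2.70). In the Flt3+ HSA+ sort it was at 47.0 and 41.5 CPM (1.13, 0.999 to 1.29), where the median member was at a ratio of 1.17. The populations with the lowest Psmc3ip were also the 2 with the lowest median depth. How much of its difference goes with depth was not tested beyond the cells of 10000 to 15000 UMIs, where Psmc3ip was at a ratio of 0.481 (0.343 to 0.670) in the Flt3- Ly6d+ sort over the Flt3+ HSA+ sort and of 0.882 (0.654 to 1.18) in the Flt3- Ly6d- HSA- sort over the Flt3+ Ly6d- HSA- sort.

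**Figure D4:**
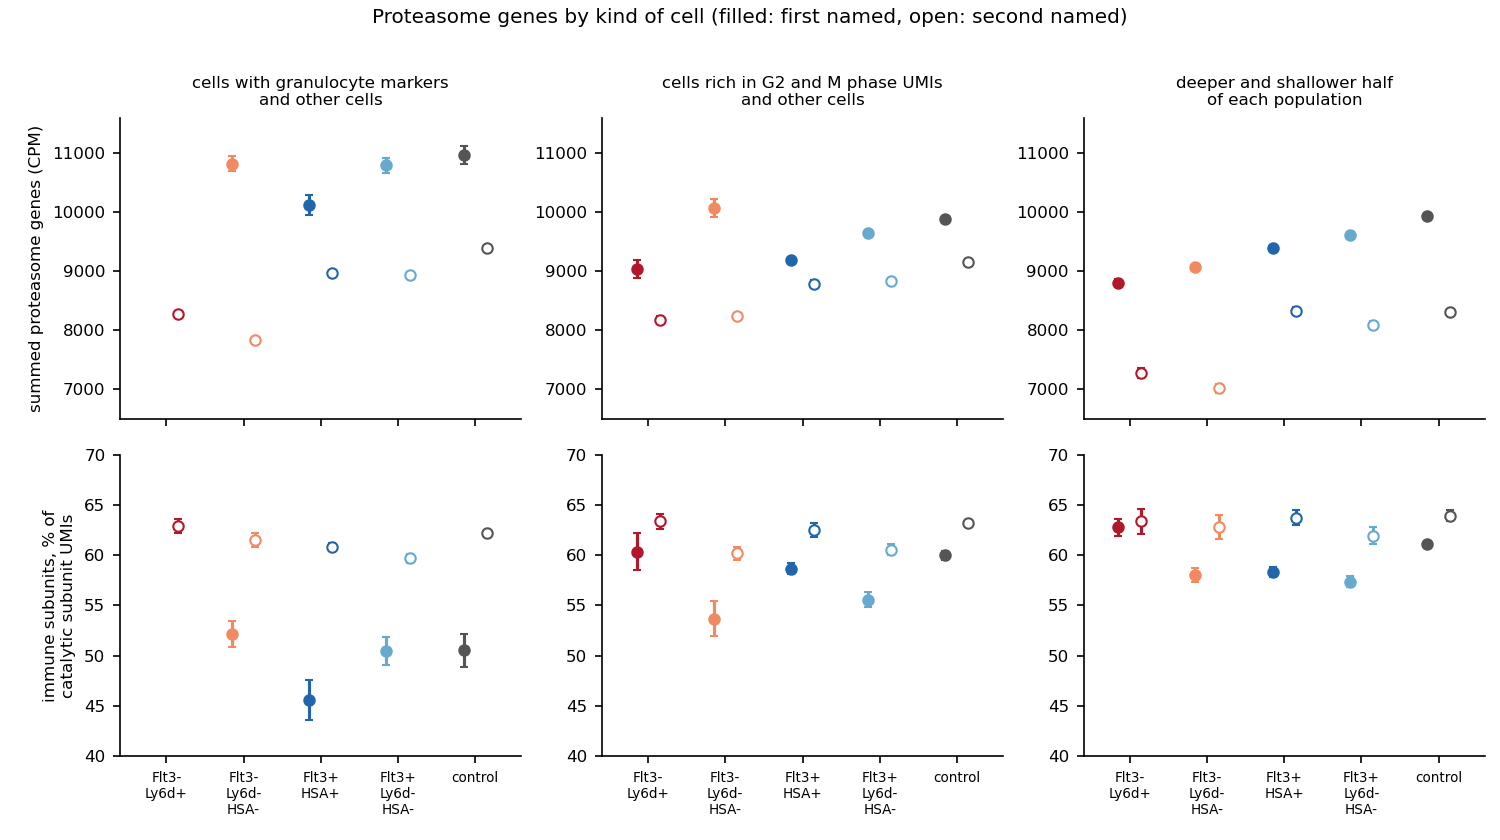
Summed level of 49 proteasome genes in CPM (top, axis not starting at 0) and immune share of catalytic UMIs in percent (bottom) for granulocyte-marker, dividing and deeper cells (filled) and the remaining cells (open) of each population, with 95% counting intervals. Filled symbols lie above open ones in every pair at the top and below them in every pair at the bottom.

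The control was also split by transcripts of T-lineage commitment, a description of its own cells. The split used the UMIs left after thinning, so a cell counted as without a UMI may hold one at full depth. The 1700 cells without a UMI of Il2ra (the gene of CD25) or Bcl11b had 9207 CPM over the 49 genes, the 622 with Il2ra alone of these 9833 CPM, the 590 with Bcl11b but not Cd3g 9748 CPM and the 338 with Bcl11b and Cd3g 9333 CPM. Psmb8 was at 789, 924, 938 and 928 CPM in that order, lowest in the cells with neither transcript. Psmb10 was at 190.1, 219.6, 168 and 159 CPM, highest in the Il2ra cells and lowest in the cells with both Bcl11b and Cd3g. Psmb7 stayed at 148 to 153 CPM, so the share of Psmb10 in its pair was 56.0%, 59.8%, 52.5% and 50.9%. A cell without a UMI of Il2ra or Bcl11b may still express it, and the median depth of the 4 groups ran from 15791 over 17176 and 18162 to 7941 UMIs.

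The median number of proteasome UMIs per cell was similar between populations. Cells within a population varied more than counting alone gives. After thinning to 3000 UMIs the median cell held 23 UMIs of the 49 genes in both Flt3- sorts and 26 in the other 3 populations, and no cell held 0. The cells ran from 10 to 49 UMIs in the Flt3- Ly6d+ sort, 8 to 46 in the Flt3- Ly6d- HSA- sort, 9 to 47 in the Flt3+ HSA+ sort, 7 to 51 in the Flt3+ Ly6d- HSA- sort and 7 to 54 in the control. The variance over the mean was 1.68, 1.77, 1.49, 1.68 and 1.76, where counting alone gives a value near 1. For the 3 immune subunits it was 1.15, 1.07, 1.09, 1.09 and 1.18. These genes held only 0.103% to 0.128% of UMIs, against 0.827% to 0.944% for the 49 genes. With fewer UMIs per cell the value lies nearer 1 at the same relative spread between cells. It thus cannot show how much cells of a population differed in the immune subunits.

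A UMI of Psmb8 was found in 85.8%, 83.4%, 88.9%, 88.1% and 91.0% of thinned cells of the Flt3- Ly6d+, Flt3- Ly6d- HSA-, Flt3+ HSA+, Flt3+ Ly6d- HSA- and control populations, the most widely detected member, and one of Psmg1 in 12.3%, 15.3%, 18.4%, 19.3% and 17.8%. Psmc3ip was found in 5.93%, 5.69%, 12.0%, 10.4% and 11.2%, and the germ-cell gene Psma8 in 0.172% to 0.4%. No cell type lacks the core genes, so a background from free RNA could not be measured for them.

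**Figure D5:**
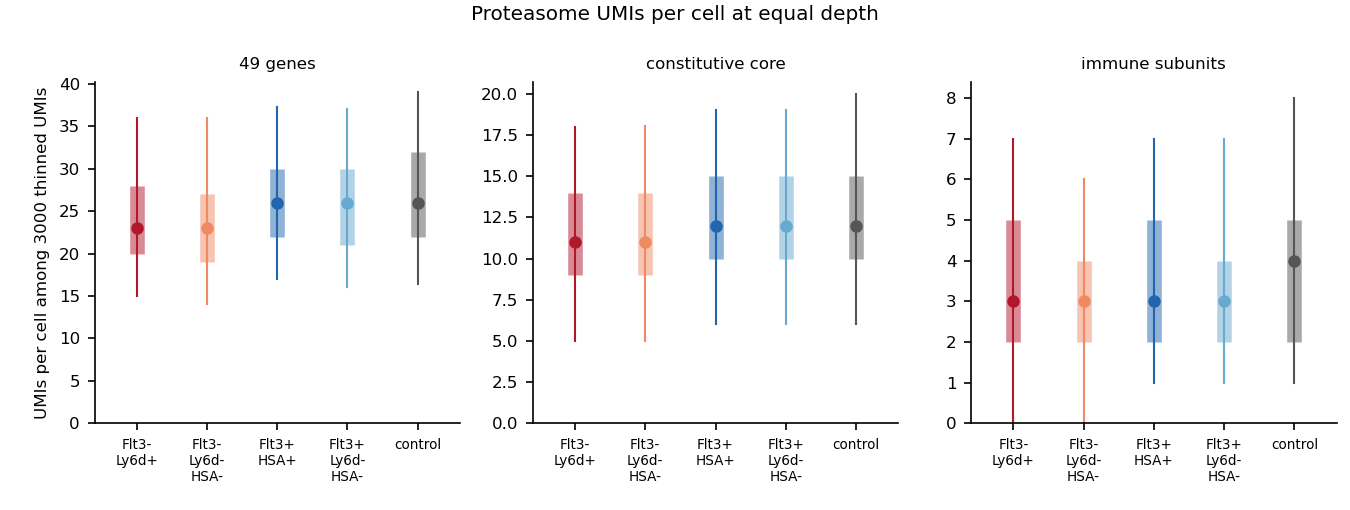
UMIs per cell of the 49 proteasome genes, the constitutive core and the immune subunits after each cell was thinned to 3000 UMIs; dots are medians, thick bars quartiles and thin lines the 5th to 95th percentile of cells. The medians for the 49 genes are 23, 23, 26, 26 and 26, and the bars of the 5 populations overlap.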

How the data were processed

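The submitters' processing notes name Cell Ranger 3.0 and the build mm10. Raw counts were deposited, as UMIs per gene and barcode, for 8293 barcodes. The deposited hashtag counts were used only to check the authors' assignment: the top hashtag was the assigned one in 100% of 7948 assigned cells, and 345 barcodes (4.16%) were unassigned and left out. No barcode occurred more than once. Doublets were not called, and the sources used here do not state filters on cells before deposit.

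UMIs were summed per population and scaled to 1000000 (CPM). Intervals (95%) of ratios come from the binomial split of counts (for the mean of the 4 gated sorts, a log-normal approximation), those of CPM are exact Poisson and those of shares Clopper-Pearson intervals. Genes at 5 CPM or more in 1 of the populations compared counted as measured. Genes named were the immune subunits and their partners, the activators, members 1.5-fold apart and the 3 highest and 3 lowest ratios of each comparison, beside a few genes that mark a range or a role, chosen after their values were seen. Cells were thinned to 3000 UMIs (seed 20), which left out 21, 45, 6, 7 and 52 cells of the Flt3- Ly6d+, Flt3- Ly6d- HSA-, Flt3+ HSA+, Flt3+ Ly6d- HSA- and control populations. Members, lists and comparisons were chosen with earlier results of these data known. Python 3.11.15, NumPy 2.4.6, SciPy 1.17.1 and pandas 2.3.3 were used, with edgeR 4.0.16 and DESeq2 1.42.0 (R 4.3.3) for alternative scaling factors only. The calculation of ratios and intervals was checked on simulated counts with known fold changes. Those held counting error only, so the check says nothing about differences between sorts.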

Additional observations from a re-analysis of the deposited data

How the results depend on the processing

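No paired analysis was possible because each population is 1 sort, and for the same reason no replicate could be left out. Depth sets a limit: cells of 10000 to 15000 UMIs (added after seeing the data) number 318, 377, 219, 473 and 781, and in no result was the cause of a change tested. In the lists below the comparisons are called Flt3- pair (Flt3- Ly6d+ over Flt3- Ly6d- HSA-), Flt3+ pair (Flt3+ HSA+ over Flt3+ Ly6d- HSA-), HSA- pair (Flt3- Ly6d- HSA- over Flt3+ Ly6d- HSA-), outer pair (Flt3- Ly6d+ over Flt3+ HSA+) and control comparison (gated mean over control).

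In cells of 10000 to 15000 UMIs the median log2 ratio was 0.0177 (outer pair, turned), −0.0113 (HSA- pair) and −0.0756 (control comparison). Summed ratios turned to 1.01 for the cap and 1.02 for the constitutive core (outer pair), 1.003 for the cap (HSA- pair) and 1.01 for the activators (control comparison). Psmb7 turned to 1.04 (outer pair), and Psme3 to 1.08 and Psmg1 to 1.05 (HSA- pair). The immune share was 62.2%, 61.0%, 63.3%, 61.8% and 63.7%. Members 1.5-fold apart numbered 1 (HSA- pair), 2 (Flt3+ pair) and 2 (outer pair, Psmc3ip and Psmd10 in place of Psmc3ip and Psmg1). Of all genes 6.97%, 7.22% and 13.5% were apart in these pairs.

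Without granulocyte-marker cells the Flt3- pair turned, to a median log2 ratio of 0.0651, 1.06 for core, cap and all 49 genes, 1.07 for Psmb5 and 1.01 for Psmb6. The 49 genes turned to 1.005 (Flt3+ pair). In the HSA- pair 1 member was 1.5-fold apart (13.1% of all genes) and in the control comparison 1 (7.77% of all genes). Immune shares were 61.6%, 60.8%, 59.7% and 62.2% in the 4 populations that hold such cells.

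With each cell thinned to 3000 UMIs, the 49 genes turned to 1.02 in both the Flt3+ and the Flt3- pair, the core to 1.001 (Flt3+ pair) and 1.01 (Flt3- pair), and Psmb5 to 1.04 and 1.001. Immune shares became 60.2%, 61.0%, 59.9% and 63.1% in the Flt3- Ly6d- HSA-, Flt3+ HSA+, Flt3+ Ly6d- HSA- and control cells. In the HSA- pair 1 member was 1.5-fold apart, where 15.8% of all genes were. With equal weight per cell the 49 genes turned to 1.01 (Flt3+ pair) and 1.02 (Flt3- pair), core and cap to 1.01 (Flt3- pair) and Psmb5 to 1.001 and 1.01. There 1 member was apart in the HSA- pair, where 11.0% of all genes were. Without the 5% of cells with most UMIs the 49 genes turned to 1.003 and 1.02, core and cap to 1.01 and Psmb5 to 1.003 (Flt3- pair). Immune shares were then 60.8%, 61.0%, 59.9% and 62.4%. In each of the HSA- pair and the control comparison 1 member was apart, where 11.3% and 7.36% of all genes were.

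In cells with under 5 G2 and M phase UMIs immune shares were 60.2%, 62.6%, 60.6% and 63.2% in the same 4 populations. Members apart numbered 1 (HSA- pair), 0 (Flt3+ pair) and 1 (outer pair), where 8.02%, 1.66% and 13.6% of all genes were. TMM and DESeq2 factors turned the 49 genes to 1.005 and 1.002 in the Flt3+ pair. Totals without mitochondrial and ribosomal protein genes turned activators to 1.01 and Psmb7 to 1.001 and moved the median log2 ratio to −0.0755 (control comparison). There 1 member was apart, where 7.94% of all genes were. The same totals turned Psmb8 to 1.003 (outer pair). At a threshold of 25% in place of 1.5-fold 4, 1, 6 and 2 members were apart in the HSA-, Flt3-, outer and control comparisons, where 25.9%, 14.2%, 37.4% and 18.1% of all genes were. At 2-fold 0 were apart in the Flt3+ and outer pairs, where 0.496% and 5.77% of all genes were. With no minimum level 1 was apart in each of the HSA-, Flt3- and control comparisons, and the share of all genes was not computed. Of the ratios of single named genes, 610 stayed within their interval, 122 moved out of it in the same direction or without a call and the 12 given here turned. The 610 include a setting that required the assigned hashtag to hold at least 80% of at least 20 counts. It removed no cell, so its ratios could not move.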

Other observations

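The 345 barcodes that the authors assigned to no population had a median of 29414 UMIs and 8995 CPM over the 49 proteasome genes. Their immune share of catalytic UMIs was 61.6% (60.9% to 62.2%), which lies inside the range of the 5 populations, 58.7% to 63.0%. The share of Psmb10 in its pair was 55.9% (54.3% to 57.6%) in these barcodes.

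Cells with UMIs, at full depth, of at least 2 of the 4 class II genes H2-Eb1, H2-Ab1, H2-Aa and Cd74 numbered 15, 16, 64, 44 and 72 in the Flt3- Ly6d+, Flt3- Ly6d- HSA-, Flt3+ HSA+, Flt3+ Ly6d- HSA- and control populations. Their immune share was 62.1%, 62.6%, 61.9%, 62.7% and 61.1%. Each of these values has an interval that holds the value of all cells of its population except in the Flt3+ HSA+ and Flt3+ Ly6d- HSA- sorts, where the class II cells were higher than all cells (60.1% and 58.7%).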
